A study of Mus musculus with 12 samples.

Results

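The 10 genes described here mark tissue macrophages. They are Adgre1, Cd68, Csf1r, Cx3cr1 and Msr1, which mark macrophages broadly, Lyve1, Timd4, Cd163 and Mrc1, which mark macrophages resident in the heart, and Ccr2, which marks monocytes and the macrophages derived from them. The genes were chosen by name, with earlier results of these data known, and were found by matching the Ensembl identifiers of the count tables to mouse symbols. All 10 were found among the 46983 genes in the tables, and all 10 passed the filter on low counts that left 14706 genes to be tested.

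RNA was sequenced from the cardiac left ventricle (LV) of 12 mice at 12 weeks of age, with 3 LVs from different litters in each of 4 groups. The groups were Wt offspring of non-diabetic pregnancies (animals 25, 42 and 89), Wt offspring of diabetic pregnancies (animals 50, 7 and 80), Hif1a+/- offspring of non-diabetic pregnancies (animals 14, 32 and 44) and Hif1a+/- offspring of diabetic pregnancies (animals 66, 72 and 77). All mice were on the FVB background, and the mutants carried 1 copy of the null allele Hif1a tm1jhu in every cell of the body, so that no effect can be assigned to a cell type. All dams were Wt and were mated to Hif1a+/- males, and those of the diabetic pregnancies had been made diabetic with streptozotocin before mating.

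Macrophages populate the heart from embryonic life onward and remain there as resident cells that take up debris and dying cells. Csf1r is the receptor for the growth factors that keep macrophages alive, and resident cells bearing Lyve1 and Timd4 renew themselves in place. Monocytes follow the chemokine Ccl2 and its relatives through the receptor Ccr2 and enter the tissue from the blood. In bulk tissue, fewer macrophages and less RNA per macrophage cannot be told apart.

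The sequenced libraries held 16132442 to 39812939 counts on genes. Hif1a itself was at 61.5 ± 8.96 CPM (counts scaled to the size of the library) in Wt and 85.7 ± 6.01 in Hif1a+/- offspring of non-diabetic pregnancies, and at 55.3 ± 6.37 and 72.3 ± 8.49 CPM after diabetic pregnancies (mean ± SD, n = 3); the reads are 3′ tags, and tags outside the deleted part of the gene do not check the genotype. The labels give every animal as female and the study describes males, while 4 Y-linked genes had more counts than Xist in 11 samples and fewer in 1, Hif1a+/- diabetic animal 72. Haemoglobin and other red cell genes summed to 7323 CPM in Wt non-diabetic animal 25 and to between 185 and 1771 CPM in the other samples. Cardiomyocyte genes summed to between 66640 and 77030 CPM in all samples and the sum of the 10 macrophage markers lay between 94.6 and 255.0 CPM. Some of the values that rest on animals 72 and 25 are also given without them.

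Upstream sequences were available for 6 of the 10 genes, and those of the resident markers Mrc1, Cd163 and Timd4 and of the recruited marker Ccr2 are shown because these genes carry the contrast between resident and recruited cells. Each run gives 250 bases before and 50 after the annotated start in RefSeq on GRCm38.p6, read 5′ to 3′ on the strand of the gene. Mrc1 lies at chr2:14229164-14229463, plus strand; Cd163 at chr6:124304401-124304700, plus strand; Timd4 at chr11:46810549-46810848, plus strand; and Ccr2 at chr9:124101933-124102232, plus strand. Capitals mark matches on either strand to GAGGAA, the core bound by the macrophage factor PU.1, or to ACGTG or GCGTG, the core bound by hypoxia-inducible factors.
Mrc1: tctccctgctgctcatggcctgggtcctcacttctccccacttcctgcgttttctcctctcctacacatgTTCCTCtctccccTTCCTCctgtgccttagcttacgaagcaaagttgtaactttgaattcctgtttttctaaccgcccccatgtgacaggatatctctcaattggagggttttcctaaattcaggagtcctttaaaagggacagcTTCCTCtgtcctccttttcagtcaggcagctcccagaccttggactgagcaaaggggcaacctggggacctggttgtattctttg
Cd163: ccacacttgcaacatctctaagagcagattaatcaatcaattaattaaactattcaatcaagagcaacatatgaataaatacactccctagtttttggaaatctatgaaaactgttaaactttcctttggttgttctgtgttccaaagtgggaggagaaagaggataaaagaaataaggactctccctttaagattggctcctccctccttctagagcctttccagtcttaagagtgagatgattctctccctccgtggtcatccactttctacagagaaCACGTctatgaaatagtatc
Timd4: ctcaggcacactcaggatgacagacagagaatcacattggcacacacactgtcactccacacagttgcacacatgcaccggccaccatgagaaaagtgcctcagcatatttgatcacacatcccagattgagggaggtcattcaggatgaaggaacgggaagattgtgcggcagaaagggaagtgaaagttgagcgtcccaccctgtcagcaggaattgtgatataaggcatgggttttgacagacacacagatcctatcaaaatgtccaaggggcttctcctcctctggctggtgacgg
Ccr2: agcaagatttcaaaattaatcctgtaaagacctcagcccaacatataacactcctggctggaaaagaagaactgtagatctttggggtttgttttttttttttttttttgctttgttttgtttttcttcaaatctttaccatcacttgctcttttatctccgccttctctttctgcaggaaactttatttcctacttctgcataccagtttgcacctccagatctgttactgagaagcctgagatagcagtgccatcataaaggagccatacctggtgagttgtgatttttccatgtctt
GAGGAA was found 3 times in the Mrc1 window and not in the windows of Cd163, Timd4 and Ccr2. The hypoxia core was found once in the Cd163 window and not in the others shown. Of 32851 promoter windows of the same length, 28.3% held GAGGAA and 43.8% held ACGTG or GCGTG, against 2 of 6 members for each motif. These matches describe the letters in the window and do not show binding. The Ccr2 gene starts at 124101950 in GENCODE M21, so most of its window, set by the RefSeq start, lies inside that gene.

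The first question was where the markers stood in the 4 groups. The highest mean was in Hif1a+/- offspring of diabetic pregnancies for 10 of 10 genes, and Wt offspring of diabetic pregnancies came second for all 10. The share of all genes with this order was not counted, and the members varied together, so the 10 are not separate observations. For Cd163 the means of these groups were close, at 13.9 and 13.5 CPM. For Ccr2 the highest mean rested on animal 77. The lowest mean was in Hif1a+/- offspring of non-diabetic pregnancies for 8 genes and in Wt offspring of non-diabetic pregnancies for Ccr2 and Cx3cr1. Values below are CPM scaled by trimmed mean of M values (TMM), and are compared within a gene only.

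**Figure D1:**
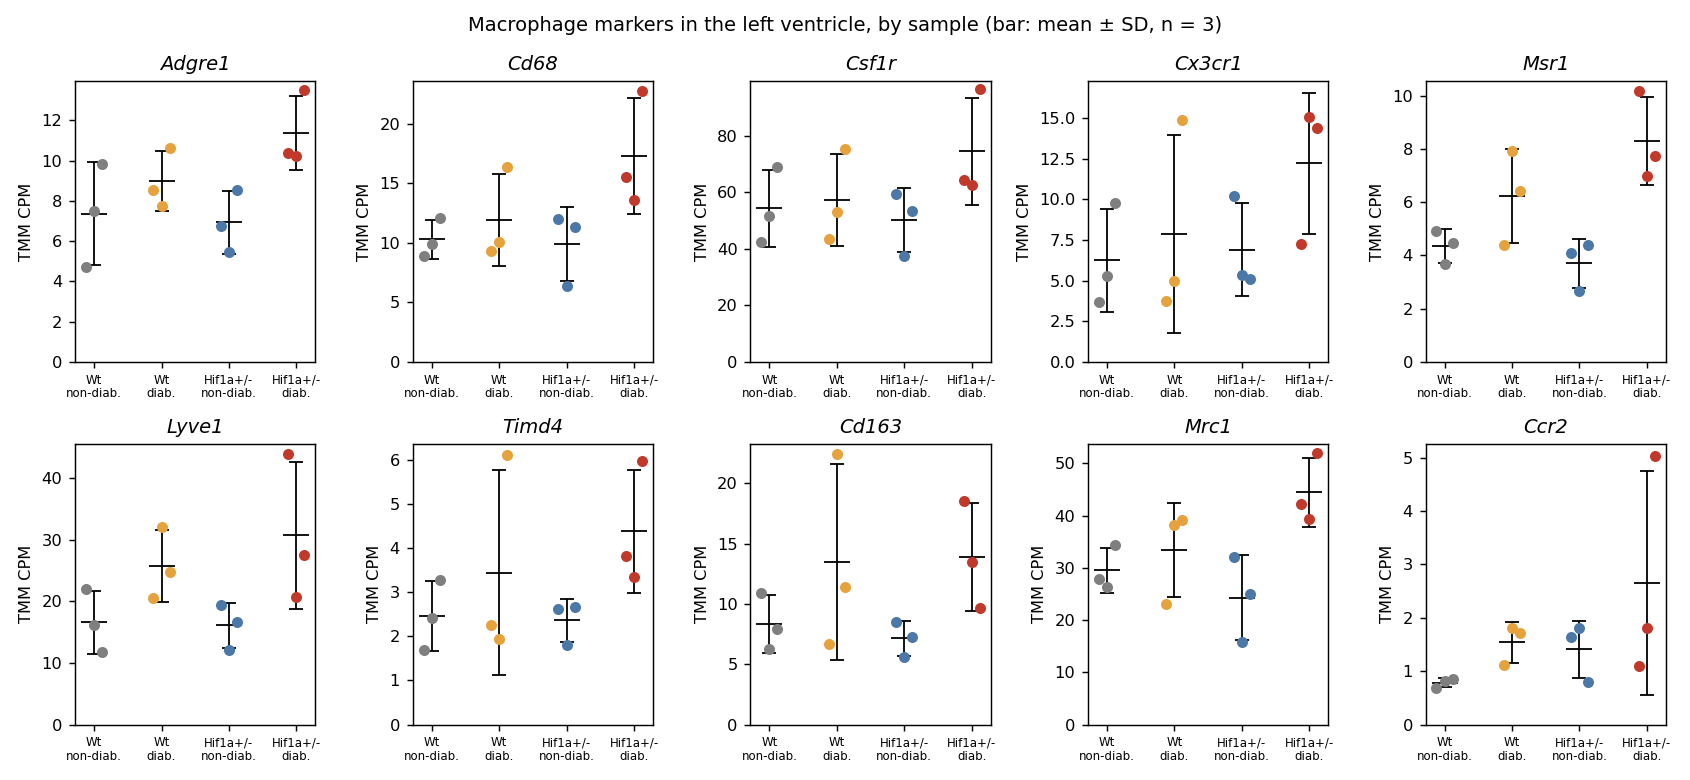
CPM of each of the 10 macrophage markers in the 12 samples, with 1 panel per gene, 1 point per animal in accession order within a group and bars giving mean ± SD (n = 3). The Hif1a+/- diabetic group had the highest mean in every panel, and its 3 samples lay above all 3 Hif1a+/- non-diabetic samples for 8 of the 10 genes, with Ccr2 and Cx3cr1 the exceptions.

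Adgre1 encodes F4/80, an adhesion receptor on mature macrophages, and lies at chr17:57358691-57483527 (plus strand, GRCm38, GENCODE M21, as for every gene position below). Its level was 4.73, 7.50 and 9.85 CPM in Wt non-diabetic animals 25, 42 and 89 and 8.54, 7.76 and 10.6 CPM in Wt diabetic animals 50, 7 and 80. It was 6.78, 5.46 and 8.55 CPM in Hif1a+/- non-diabetic animals 14, 32 and 44 and 10.4, 10.2 and 13.5 CPM in Hif1a+/- diabetic animals 66, 72 and 77. Within the mutants the groups did not overlap, whereas within the Wt animals they did. The study counted cells stained for F4/80 in LV sections and reported a significant rise in Wt offspring of diabetic pregnancies only. That count is of stained cells and the values here are RNA of bulk tissue. The cause of the difference between them was not tested.

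Cd68, a glycoprotein of macrophage lysosomes (chr11:69664213-69666153, minus strand), was at 8.90, 9.91 and 12.1 CPM in Wt non-diabetic and 9.32, 10.1 and 16.3 CPM in Wt diabetic samples. It was at 12.0, 6.37 and 11.3 CPM in Hif1a+/- non-diabetic and 15.5, 13.6 and 22.7 CPM in Hif1a+/- diabetic samples. Csf1r (chr18:61100598-61132149, plus strand) was at 42.3, 51.8 and 69.1 CPM in Wt non-diabetic samples and 43.6, 53.1 and 75.2 CPM in Wt diabetic samples. In both genes animals 80 and 77 gave the highest value of their groups and animal 32 the lowest value of all 12. Csf1r in the mutants was at 59.4, 37.6 and 53.6 CPM after non-diabetic and 64.5, 62.8 and 96.5 CPM after diabetic pregnancies, again without overlap.

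Msr1 encodes a scavenger receptor for modified lipoproteins and lies at chr8:39581685-39642673 (minus strand). Its level was 4.92, 3.68 and 4.46 CPM in Wt non-diabetic and 4.38, 7.90 and 6.40 CPM in Wt diabetic samples. It was 4.09, 2.65 and 4.38 CPM in Hif1a+/- non-diabetic samples, on 105, 47 and 87 counts, and 10.2, 7.00 and 7.73 CPM in Hif1a+/- diabetic samples, on 396, 159 and 175 counts. All 3 Hif1a+/- diabetic samples stood above every non-diabetic sample of either genotype. Cx3cr1, the fractalkine receptor (chr9:119901616-120069879, minus strand), was more variable, at 3.67, 5.28 and 9.77 CPM in Wt non-diabetic, 3.74, 5.01 and 14.8 CPM in Wt diabetic, 10.2, 5.35 and 5.13 CPM in Hif1a+/- non-diabetic and 7.24, 15.1 and 14.4 CPM in Hif1a+/- diabetic samples. Its groups overlapped in each comparison.

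Among the resident markers, Lyve1 encodes a hyaluronan receptor and lies at chr7:110850607-110863239 (minus strand). It was at 22.0, 16.1 and 11.8 CPM in Wt non-diabetic and 20.5, 32.1 and 24.7 CPM in Wt diabetic samples, and at 19.4, 12.1 and 16.7 CPM in Hif1a+/- non-diabetic and 44.0, 20.8 and 27.6 CPM in Hif1a+/- diabetic samples. The mutant groups were separated by animal 72 at 20.8 CPM and animal 14 at 19.4 CPM, and animal 66 stood highest of all. Lyve1 is also made by lymphatic endothelium, whose 6 other markers summed to 116 to 128 CPM in Wt non-diabetic, 114 to 130 CPM in Wt diabetic, 134 to 137 CPM in Hif1a+/- non-diabetic and 113 to 139 CPM in Hif1a+/- diabetic samples, ranges that overlapped between the mutant groups.

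Mrc1, the mannose receptor CD206 (chr2:14229392-14332057, plus strand), was at 27.9, 26.3 and 34.3 CPM in Wt non-diabetic and 23.1, 38.1 and 39.1 CPM in Wt diabetic samples. In the mutants it was at 32.1, 15.8 and 24.9 CPM after non-diabetic and 42.2, 39.3 and 52.0 CPM after diabetic pregnancies. Its 3 Hif1a+/- diabetic samples were higher than the other 9. The nearest Wt diabetic sample, animal 80 at 39.1 CPM, was close to animal 72 at 39.3 CPM.

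Cd163, the receptor that clears haptoglobin bound to haemoglobin (chr6:124304656-124330527, plus strand), was at 10.9, 6.23 and 7.89 CPM in Wt non-diabetic and 6.64, 22.4 and 11.4 CPM in Wt diabetic samples. It was at 8.53, 5.63 and 7.29 CPM in Hif1a+/- non-diabetic and 18.6, 13.5 and 9.63 CPM in Hif1a+/- diabetic samples. The highest sample was Wt diabetic animal 7, and the SD of that group was 60.1% of its mean. Timd4, which binds phosphatidylserine on dying cells (chr11:46810800-46844332, plus strand), was at 1.68, 2.41 and 3.27 CPM in Wt non-diabetic and 2.26, 1.94 and 6.11 CPM in Wt diabetic samples. It was at 2.61, 1.80 and 2.67 CPM in Hif1a+/- non-diabetic and 3.83, 3.35 and 5.96 CPM in Hif1a+/- diabetic samples, and animals 80 and 77 again led their groups.

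Ccr2 was the member with the fewest reads, between 11 and 114 counts in a sample (chr9:124101950-124113557, plus strand). It was at 0.685, 0.819 and 0.858 CPM in Wt non-diabetic and 1.11, 1.80 and 1.71 CPM in Wt diabetic samples, which did not overlap. In the mutants it was at 1.64, 1.80 and 0.804 CPM after non-diabetic and 1.10, 1.80 and 5.04 CPM after diabetic pregnancies, and the high mean of the last group came from animal 77.

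Diabetic and non-diabetic pregnancies were then compared within Hif1a+/- offspring. All 10 genes were higher after diabetic pregnancies, with a median log2 fold change of 0.87, against a median of -0.01 over the 14706 genes tested, of which 49% were above 0. The members ranged from 0.57 for Csf1r, which was at 0.34 without animal 77, to 1.16 for Msr1. Samples did not overlap for 8 members, all but Ccr2 and Cx3cr1, where 11.2% of all genes were higher without overlap, and the count was also 8 without animal 72, against 15.4% of all genes. An unadjusted p under 0.05 was reached by the same 8 members, against 5.72% of all genes that were higher at that p. This count was 5 without Hif1a+/- non-diabetic animal 32 and 5 without Hif1a+/- diabetic animal 77. In those fits 1193 of 15039 and 1253 of 14877 genes were under 0.05 in either direction, against 1764 of 14706 with all samples.

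Msr1 had the smallest p of the members, with a log2 fold change of 1.16 (SE 0.24, adjusted p = 0.178 by edgeR's quasi-likelihood test). Mrc1 differed by 0.87 (SE 0.24, adjusted p = 0.266) and Lyve1 by 0.94 (SE 0.28, adjusted p = 0.292) in the same edgeR test. These adjusted values miss the threshold of 0.1 taken from the study's methods, and edgeR called 0 members and 0.0% of all genes. DESeq2, the tool named in the study's methods, called 1.38% of all genes and 3 members, with adjusted p = 0.00229 for Msr1, 0.0320 for Mrc1 and 0.0586 for Lyve1. The study lists these 3 genes for the same Hif1a+/- diabetic samples set against Wt non-diabetic samples, so the group but not the comparison is shared, and the calls are not independent evidence.

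The other general markers had log2 fold changes of 0.71 for Adgre1, 0.79 for Cd68 and 0.80 for Cx3cr1, with edgeR adjusted p-values of 0.306, 0.312 and 0.511. Cd163 differed by 0.96, Timd4 by 0.88 and Ccr2 by 0.87, with edgeR adjusted p-values of 0.364, 0.414 and 0.467. The value for Ccr2 rested on animal 77, without which its log2 fold change was 0.01. Lyve1 without animal 66 was at 0.58. Without animal 72, DESeq2 called 4 members, Cd68 in addition to the 3 above, and 171 of 15009 genes.

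**Figure D2:**
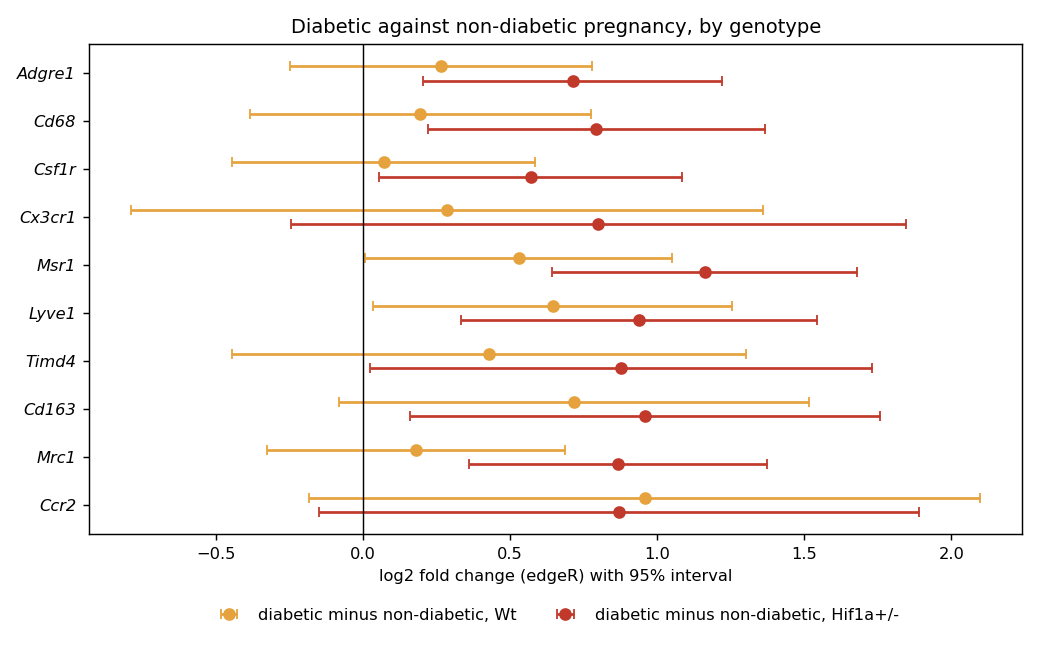
Log2 fold change between diabetic and non-diabetic pregnancies for each marker, in Wt and in Hif1a+/- offspring; points are edgeR estimates and lines 95% intervals, unadjusted. The Hif1a+/- point lies to the right of the Wt point for every gene but Ccr2, and the intervals of the 2 genotypes overlap for all 10.

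In Wt offspring the same comparison gave smaller values. All 10 genes were again above 0, with a median log2 fold change of 0.36 against 0.01 over all genes tested, of which 51.6% were above 0. Csf1r was lowest at 0.07 and Ccr2 highest at 0.96 (SE 0.53). Lyve1 differed by 0.64 (SE 0.28) and Msr1 by 0.53 (SE 0.24), the 2 members under 0.05 before adjustment, where 1.17% of all genes were higher at that p. Both are on the study's list for these Wt diabetic samples, which comes from the same data and is not independent evidence. The count of members under 0.05 was 0 without animal 42, 7 or 80, 1 without animal 89 and 3 without animal 25 or 50. In these fits between 310 and 836 genes were under 0.05 in either direction, of 14851 to 15034 tested. After adjustment in edgeR p was 1.00 for both, and edgeR called 0 members and 0.0% of genes. DESeq2 called 0 members and 0.0544% of genes. Ccr2 was the 1 member whose samples did not overlap, against 2.14% of genes higher in that way. Without animal 50 this count was 5 (against 6.9% of genes), and it was 2 without animal 25 (5.33%) or animal 89 (7.14%). Without animal 80 the log2 fold changes of Cd68, Csf1r, Timd4 and Cx3cr1 were -0.09, -0.17, -0.25 and -0.53. Without animal 25 Csf1r was at -0.08 and the other 9 members stayed above 0.

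Whether diabetes acted differently in the 2 genotypes was tested as an interaction. The interaction was above 0 for 9 members, from 0.24 for Cd163 to 0.69 for Mrc1, and was -0.09 for Ccr2. For Mrc1 it was 0.69 (95% interval -0.03 to 1.40, edgeR adjusted p = 0.998) and for Msr1 0.63 (95% interval -0.10 to 1.37, edgeR adjusted p = 0.998). No member passed by edgeR, which called 0.0% of all genes, or by DESeq2, which called 0.0272%. An effect of diabetes that differs between the genotypes was not shown for any of the 10. The interval of each interaction included 0 with all 12 samples. No member then had an unadjusted edgeR p under 0.05, against 371 of 14706 genes. This count was 1 without animal 25 or 14, 2 without animal 7 and 5 without animal 80, with 0 members past the threshold. Genes under 0.05 in these fits numbered 545, 464, 503 and 1162, of 14851 to 15034 tested. The interaction was above 0 for 9 members without animal 25 and 10 without animal 72.

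The genotypes were compared within each kind of pregnancy. Without diabetes 8 of the 10 genes were lower in Hif1a+/- than in Wt offspring, with log2 fold changes from -0.28 for Mrc1 to 0.83 for Ccr2 and a median of -0.08. Without animal 32 the number of lower members was 3, Mrc1, Cd163 and Msr1. Without animal 25 it was 7, with Lyve1 at 0.21 and Cd163 at 0.02 among those above 0. All 10 members overlapped between these groups, while 2.55% of all genes were higher and 2.26% lower without overlap. The count became 1 lower member without animal 42 (against 6.86% of genes lower) or animal 14 (7.79%), and 1 higher member without animal 44 (against 6.26% higher). EdgeR called 0.0% and DESeq2 0.0068% of all genes, and neither called a member.

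With diabetes all 10 genes were higher in Hif1a+/- than in Wt offspring, from 0.04 for Cd163 to 0.74 for Ccr2, with a median of 0.40 and a lowest edgeR adjusted p of 0.862. Mrc1 was the 1 member without overlap, against 4.32% of genes that were higher; the count was 0 with DESeq2 size factors, 6 without Wt diabetic animal 80, where 14.9% of genes were higher in that way, and 2 without Wt diabetic animal 7, where 9.77% were. Without animal 66 Lyve1 was at -0.10, and without animal 77 Ccr2 was at -0.12. EdgeR called 0.0% and DESeq2 0.163% of all genes, and neither called a member.

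Hif1a+/- offspring of diabetic pregnancies were also set against Wt offspring of non-diabetic pregnancies, which differ in both factors. All 10 genes were above 0, with a median of 0.78. Ccr2 differed most, by 1.70 (SE 0.51, edgeR adjusted p = 0.459), and was at 0.84 without animal 77. Samples did not overlap for 6 members, Adgre1, Cd68, Mrc1, Timd4, Ccr2 and Msr1, against 7.47% of genes that were higher; the count was 7 without animal 72 (against 11.8% of genes) and 8 without animal 25 or animal 89, with between 10.2% and 19.0% of genes higher in that way over the 6 samples left out in turn. At an unadjusted p under 0.05 there were 6 members, against 4.09% of genes. This number was 4 without animal 25 and 7 without animal 72. In those fits 818 of 15034 and 1078 of 15009 genes were under 0.05 in either direction. EdgeR called 0 members and 0.0% of genes. DESeq2 called 0.53% of genes and 1 member, Msr1, with a log2 fold change of 0.94 by edgeR and an adjusted p of 0.0476 by DESeq2. Without animal 72 DESeq2 called 3 members, Lyve1, Ccr2 and Msr1, and 96 of 15009 genes.

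Resident and recruited markers were set against each other in each sample as the mean log2(CPM + 1) of Lyve1, Timd4, Cd163 and Mrc1 minus that of Ccr2. The difference was 2.66 ± 0.17 in Wt non-diabetic, 2.55 ± 0.18 in Wt diabetic, 2.11 ± 0.55 in Hif1a+/- non-diabetic and 2.45 ± 0.85 in Hif1a+/- diabetic samples (SD, n = 3). Both sides were highest after diabetes in the mutants, at 4.17 ± 0.22 for the resident mean and 1.72 ± 0.79 for Ccr2. The 3 samples of that group ran from 3.30 in animal 66 through 2.45 in animal 72 to 1.60 in animal 77, against 1.51 to 2.84 in the other 9 samples. Animal 66 had the highest resident mean with the lowest Ccr2 of the 6 diabetic animals, and animal 77 had the highest Ccr2.

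Diabetic and non-diabetic groups differed in this measure by -0.11 in Wt and 0.34 in Hif1a+/- offspring, both less than the pooled SD of 0.18 and 0.71. With a pseudocount of 0.1 in place of 1 the Wt value was -0.45, larger than its pooled SD of 0.18. The Hif1a+/- value was -0.09 without animal 66 and 0.76, larger than its pooled SD of 0.57, without animal 77. Between genotypes without diabetes the difference was -0.55, larger than the pooled SD of 0.41, and without animal 32 it was -0.25 with a pooled SD of 0.20. The difference was -0.10 between genotypes with diabetes and -0.21 between the group with both factors and the group with neither, with pooled SDs of 0.61 and 0.61. These 2 values were -0.52 and -0.63 without animal 66, both larger than their pooled SDs of 0.38 and 0.37, and 0.33 and 0.22 without animal 77. No test was run on this score, and 3 samples against 3 cannot reach an exact permutation p under 0.05.

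**Figure D3:**
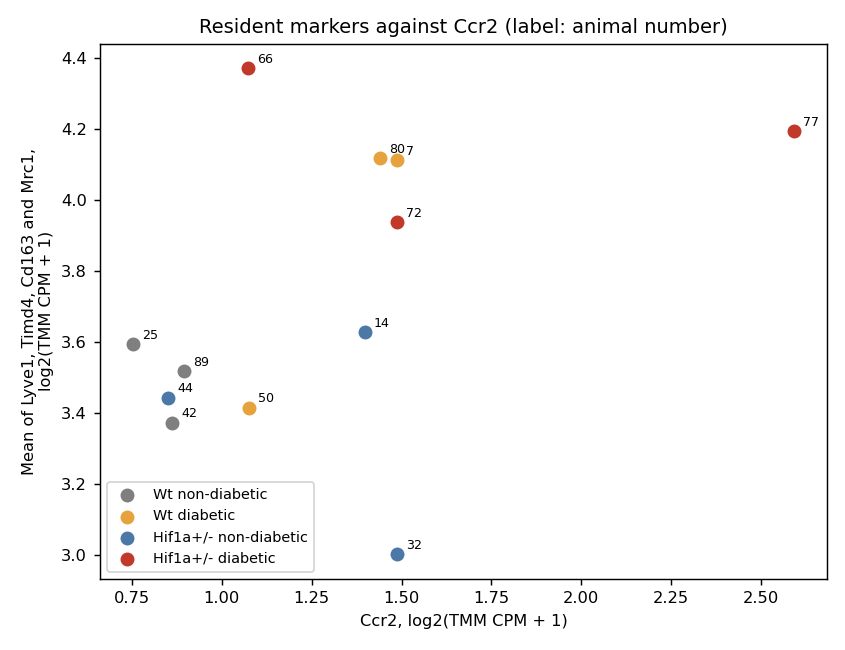
Mean log2(CPM + 1) of the 4 resident markers against log2(CPM + 1) of Ccr2, 1 point per animal, colored by group and labelled with the animal number. Animals 66 and 77, both Hif1a+/- diabetic, have resident means of 4.37 and 4.19 and Ccr2 levels of 1.07 and 2.59.

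How the members varied together was examined over the 12 samples. Pearson's r of log2(CPM + 1) was above 0 for all 45 pairs of members, from 0.12 for Lyve1 with Cx3cr1 to 0.96 for Cd68 with Csf1r, with a median of 0.63. After Benjamini-Hochberg adjustment over the 45 pairs, 22 had an adjusted permutation p under 0.05 for r and 19 for Spearman's rho. The points share the 4 groups, so r was also taken on deviations from the group means. It then ran from -0.36 to 0.95, with 33 pairs above 0.

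Cd68, Csf1r, Timd4 and Adgre1 moved together. Cd68 and Csf1r had r = 0.96 (permutation p = 2e-05, adjusted p = 0.0003) and rho = 0.98 (permutation p = 1e-05, the smallest that 100000 permutations can give), with r = 0.91 without the 2 samples farthest from the median of Cd68 and 0.95 on deviations from group means. Csf1r and Timd4 had r = 0.91 (permutation p = 2e-05, adjusted p = 0.0003) and rho = 0.94 (permutation p = 2e-05), and kept r = 0.87 without the 2 farthest samples and 0.88 within groups. Timd4, named here as a resident marker, moved with the general markers Adgre1, Cd68 and Csf1r. Cx3cr1 lay near this set, with r = 0.835 to Csf1r, 0.826 to Timd4, 0.763 to Cd68 and 0.688 to Adgre1. Its rho to these genes was 0.762, 0.797, 0.783 and 0.636, and its r within groups 0.792, 0.780, 0.672 and 0.582.

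Lyve1, Cd163 and Msr1 formed another set. Lyve1 and Msr1 had r = 0.89 (permutation p = 8e-05, adjusted p = 0.0009) and rho = 0.87 (permutation p = 0.00054), and r = 0.92 without the 2 farthest samples. Cd163 and Msr1 had r = 0.88 (permutation p = 0.00016, adjusted p = 0.0012) and rho = 0.90 (permutation p = 0.0002), with r = 0.84 without the 2 farthest. Within groups r was 0.78 and 0.86 for these pairs. Lyve1 and Timd4, both resident markers, had r = 0.34 (permutation p = 0.27, adjusted p = 0.32) and rho = 0.31 (permutation p = 0.33), with 0.40 without the 2 farthest samples and -0.15 within groups. Mrc1 followed both sets, with r = 0.90 to Cd68 (permutation p = 0.00012) and 0.87 to Msr1 (permutation p = 0.00029), rho = 0.87 (permutation p = 0.00029) and 0.85 (permutation p = 0.0008), and r = 0.75 and 0.81 without the 2 farthest samples. Ccr2 reached an adjusted permutation p under 0.05 with 0 of the other members. Msr1 also had r = 0.72 with Cd68 of the other set, and 0.40 within groups. The 2 sets were described after the values were seen, and their difference was not tested.

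**Figure D4:**
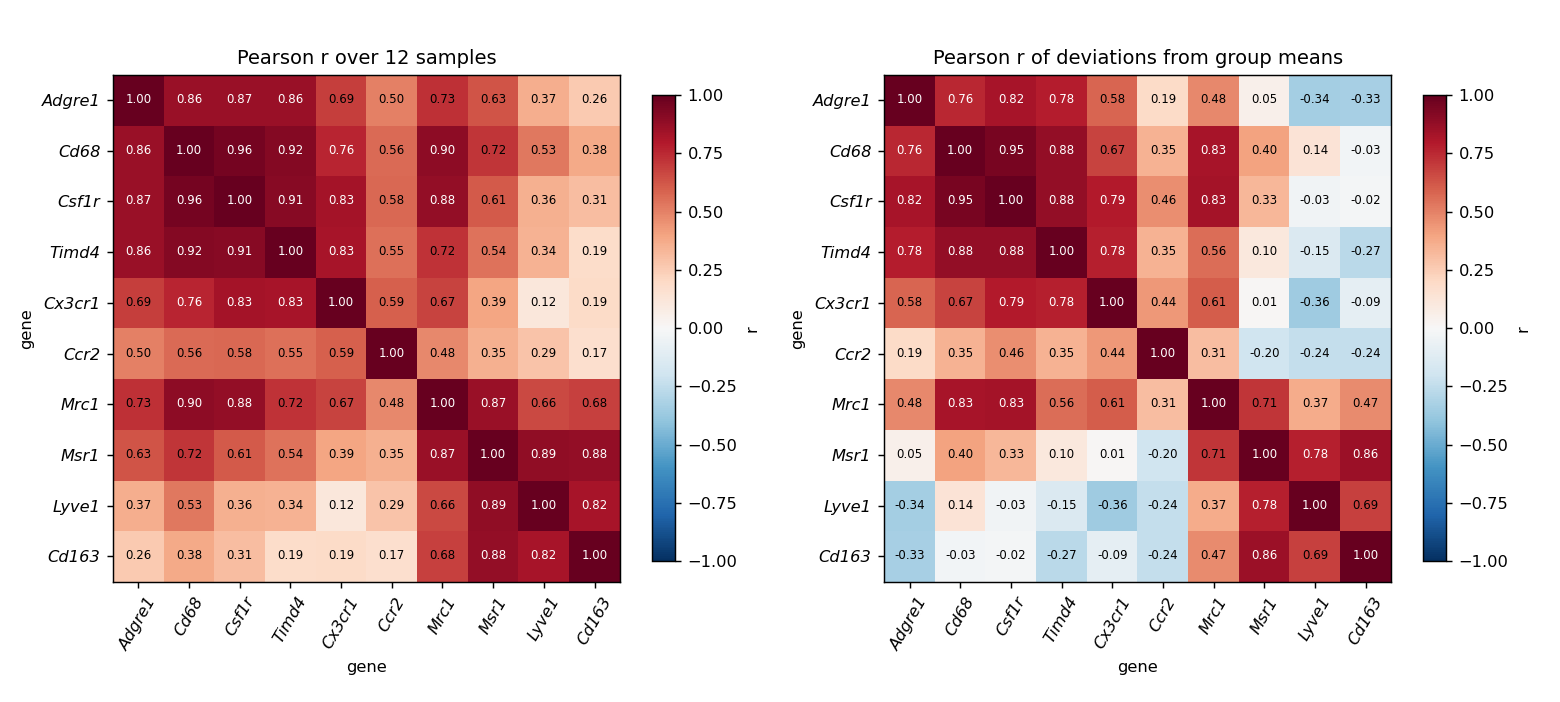
Pearson's r between the 10 markers, from log2(CPM + 1) over 12 samples at left and from deviations from the 4 group means at right, with color from -1 to 1. Cd68, Csf1r, Timd4 and Adgre1 keep r from 0.76 to 0.95 with each other in the right panel, and Msr1, Lyve1 and Cd163 r from 0.69 to 0.86, while pairs across these sets lie between -0.34 and 0.40.

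Of all 14706 genes, those most like Adgre1 over the 12 samples were Tyrobp, an adaptor of myeloid receptors, at r = 0.94, then A330069E16Rik at 0.93, Syngr2 at 0.92, and Rpl19-ps11 and Tnfaip8l2 both at 0.91. Rpl19-ps11 is a pseudogene whose reads may be shared with its parent gene. Those most like Lyve1 were the chemokine genes Ccl9 at 0.94 and Ccl6 at 0.89, with Ms4a6d at 0.93, Ddr1 at 0.89 and Msr1 at 0.89. Those most like Ccr2 were Cmah and Mboat7, both at 0.90, and Vsir, Rela and Palb2, which were each at 0.88 or slightly above. The samples share their groups, and these genes were picked for their likeness from all genes tested, so no p is given.

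Other genes of the same cells were read from lists fixed by name. In Hif1a+/- offspring, 13 of 14 general macrophage genes outside the 10 members were higher after diabetic pregnancies, with a median log2 fold change of 0.90, and DESeq2 called 10 of them higher, where it called 1.38% of all genes. The study lists these same 10 genes for Hif1a+/- diabetic hearts, so the count is not independent evidence. C1qb, a subunit of complement C1q, differed by 1.25 (SE 0.25), Lyz2, lysozyme, by 0.97 (SE 0.21) and Laptm5, a lysosomal protein of blood cells, by 0.90 (SE 0.19), each with an edgeR adjusted p of 0.178. C1qb was at 37.7, 27.0 and 36.4 CPM in Hif1a+/- non-diabetic and 69.3, 60.9 and 112 CPM in Hif1a+/- diabetic samples. In Wt offspring the median of this list was 0.28, and DESeq2 called 0 of 14.

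All 10 further genes of resident-like macrophages were above 0 in the mutants, with a median of 0.69, and DESeq2 called 5 higher, again against 1.38% of all genes. These 5, Folr2, F13a1, Stab1, Pf4 and Fcna, are on the study's list for the same samples and are not independent evidence. Fcna, a ficolin, differed by 1.63 (SE 0.35), F13a1, a coagulation factor subunit, by 0.90 (SE 0.20) and Pf4, a chemokine, by 0.74 (SE 0.16), with edgeR adjusted p-values of 0.178, 0.183 and 0.178. Of 10 genes listed for monocytes and recruited cells 8 were tested, and all 8 were above 0, with a median of 0.49. DESeq2 called 1, the integrin gene Itgam, at 1.29 (SE 0.27, edgeR adjusted p = 0.178). Itgam is on the study's lists from the same samples and is not independent evidence. Ifitm3, an interferon-induced gene, was at 0.51 and Vcan, a matrix proteoglycan, at 0.67. Neither is made by monocytes alone, so this list does not measure those cells on their own. In Wt offspring the medians of the 2 lists were 0.07 and 0.16, with 0 DESeq2 calls in either.

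A further list held ligands of the member receptors together with Has1, Has2 and Has3, which encode enzymes that make hyaluronan and are not ligands themselves. Of its 10 genes 9 were tested and 8 were above 0 in the mutants, with a median of 0.76. DESeq2 called 2 of them, where it called 1.38% of all genes. Those were Ccl2, at 0.94 (SE 0.27, DESeq2 adjusted p = 0.0824), and Ccl7, at 1.43 (SE 0.45, DESeq2 adjusted p = 0.0845), both chemokines that bind Ccr2. Both are on the study's lists from these samples and are not independent evidence. Ccl7 was at 1.32, 1.35 and 1.71 CPM in Hif1a+/- non-diabetic and 2.49, 2.60 and 6.89 CPM in Hif1a+/- diabetic samples. Ccl12, a further Ccr2 ligand, was at 1.09, 0.451 and 0.654 CPM and then 1.26, 3.08 and 7.11 CPM. Animal 77, which had the highest Ccr2, was the highest of the 12 samples for Ccl2, Ccl7 and Ccl12 too. In Wt offspring 4 of the 9 tested genes of this list were above 0, and the median was -0.07. All 8 macrophage transcription factors were above 0 in the mutants, with a median of 0.36 and 0 calls by either tool; Spi1, which encodes PU.1, was at 0.80, Maf at 0.64 and Irf8 at 0.46.

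Markers of other cells were read beside the members in the same comparison. All 8 fibroblast and adventitial genes were above 0 in the mutants, with a median of 0.45. DESeq2 called 3 of them, Pi16 at 1.55, Cd248 at 1.08 and Mfap5 at 0.91, where it called 1.38% of all genes. The study lists these 3 for the same Hif1a+/- diabetic samples, so the calls are not independent evidence. The summed level of the 8 genes was 1341 to 1461 CPM in Hif1a+/- non-diabetic and 1465 to 2054 CPM in Hif1a+/- diabetic samples. Its part in the macrophage values was not tested. Lymphatic endothelium was at a median of 0.10 and blood endothelium at -0.05, with 0 calls by either tool; the genes with the smallest p were Pdpn at 0.59 and Prox1 at -0.19 in the former, and Emcn at 0.29 and Cdh5 at -0.27 in the latter. Of 6 neutrophil genes 3 were tested, and S100a8 and S100a9 were at 2.90 and 2.75 with edgeR adjusted p-values of 0.328 and 0.319; the 6 genes summed to 1.36 to 2.49 CPM in Hif1a+/- non-diabetic, 4.40 to 8.61 CPM in Hif1a+/- diabetic and 19.6 CPM in Wt non-diabetic animal 25.

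The remaining lists had 0 calls by either tool in this comparison. Epicardium and mesothelium were at a median of 0.35 on 4 tested genes, dendritic cells at -0.02 on 4, T and B lymphocytes at 0.38 on 2, mast cells at -0.44 on 2, red cells at 0.49 on 4 and cardiomyocytes at -0.01 on 6. Fcer1a, a gene of the mast cell list, was at 0 in all samples, while the 5 genes of that list summed to 4.23 to 8.85 CPM.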

How the data were processed

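Total RNA of 12 left ventricles was sequenced as uni-directional 3′ reads. The authors trimmed reads (Trimmomatic), aligned them to GRCm38 (STAR 2.5.2b, GENCODE M8) and deposited raw counts per gene (HTSeq); their DESeq2-normalized tables were not used. From the deposited counts, symbols were matched for 46488 of 46983 identifiers, and the 5 tally lines of each table were left out of all totals; reads not aligned uniquely came to 12.4 to 17.0% of these lines and counts together. Replicates differed by more than sampling noise in all 12 within-group pairs (chi-square per gene 5.54 to 47.2 over 13071 genes with at least 10 counts).

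The main test was edgeR 4.0.16 (R 4.3.3): TMM, the filterByExpr filter, quasi-likelihood F tests, 4 group means over 12 samples with 8 residual degrees of freedom, and Benjamini-Hochberg adjustment over 14706 genes at a threshold of 0.1; the biological coefficient of variation was 13.7%. The scripts were tested on simulated data. DESeq2 1.42.0 on the same filtered genes, limma 3.58.1 voom with quality weights, other scaling, filters and samples were alternatives. Correlations used log2(CPM + 1) and 100000 two-sided permutations. All 10 members were named; of other lists at most 3 genes with the smallest p in the Hif1a+/- comparison, and as most alike the 5 genes with the highest r. Members and lists were chosen with earlier results of these data known. Non-overlap means that every sample of 1 group lies above every sample of the other.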

Additional observations from a re-analysis of the deposited data

How the results depend on the processing

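Of the members' log2 fold changes under the alternatives, 736 kept direction and stayed short of the threshold, 40 passed it only under the alternative and 34 turned in direction. The edgeR test as reported called 0 members, so no alternative could lose a call. The cause of these changes was not tested. In the order diabetes in Wt, diabetes in Hif1a+/-, genotype without diabetes, genotype with diabetes, both against neither and interaction, genes past the threshold numbered 0 in the edgeR test as reported, 8, 203, 1, 24, 78 and 4 with DESeq2, 0, 937, 0, 1, 2 and 0 with limma-voom, and 129, 592, 33, 220, 445 and 78 in edgeR without the low-count filter. Diabetes in Hif1a+/- gave 101 genes when only its groups were fitted. DESeq2 without Hif1a+/- diabetic replicate 72, chosen after seeing the data, gave 171, 34, 96 and 12 genes in the 4 contrasts that use that sample. Members past the threshold in diabetes in Hif1a+/- numbered 3 with DESeq2, 7 with limma-voom, 9 without the filter, 1 in its groups alone and 4 with DESeq2 without replicate 72; in both against neither they numbered 1, with DESeq2, 10 without the filter and 3 with DESeq2 without replicate 72; in diabetes in Wt, 2 without the filter.

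Leaving out 1 replicate at a time, where the 2 samples left were assumed to vary like the other groups, gave 0 to 38 genes in diabetes in Hif1a+/- (38 without replicate 72), 0 to 2 in genotype with diabetes, and 0 to 1 in both against neither and in the interaction. Members without overlap then ranged from 1 to 5 in diabetes in Wt, 0 to 1 in genotype without diabetes and 1 to 6 in genotype with diabetes, where DESeq2 size factors gave 0. Of all genes, 4.47% to 8.44% were higher without overlap in diabetes in Wt and 6.91% to 14.9% in genotype with diabetes. In genotype without diabetes 5.02% to 7.96% were higher and 4.18% to 7.99% lower in that way. The resident minus recruited difference in Wt was -0.45 with a pseudocount of 0.1. Leave-one-out ranges that crossed 0 were, for diabetes in Wt, Cd68 -0.092 to 0.34, Csf1r -0.17 to 0.28, Timd4 -0.25 to 0.73 and Cx3cr1 -0.53 to 0.77. For genotype without diabetes they were Adgre1 -0.33 to 0.17, Cd68 -0.22 to 0.17, Csf1r -0.27 to 0.092, Cd163 -0.38 to 0.017, Lyve1 -0.23 to 0.21, Timd4 -0.27 to 0.20 and Cx3cr1 -0.27 to 0.63. For genotype with diabetes they were Cd163 -0.29 to 0.64, Lyve1 -0.10 to 0.48 and Ccr2 -0.12 to 1.14, and for the interaction Cd163 -0.090 to 0.85, Lyve1 -0.065 to 0.51 and Ccr2 -0.95 to 0.31. With limma-voom Cx3cr1 in diabetes in Wt was -0.034 and the Ccr2 interaction 0.022, and the latter was 0.14 with DESeq2 without replicate 72.

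No paired analysis was run, because the replicate numbers are those of single animals and the litter of each animal was not known. Whether animals of different groups were littermates is therefore unknown. With 11 to 53 counts in 11 of the 12 samples, Ccr2 was the member whose depth limited it most.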
